A study of Mus musculus with 8 samples.

Results

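The genes described here are 10 core components of canonical Wnt signalling: the co-receptors Lrp5 and Lrp6, the destruction complex proteins Axin1, Axin2 and Apc, their substrate beta-catenin (Ctnnb1), and the DNA-binding partners Tcf7, Tcf7l1, Tcf7l2 and Lef1. They were taken by gene symbol, matched through the RefSeq accession that each array probe carries, and every matched probe was kept. All 10 genes were on the array, with 16 probes of the 39429 gene probes, and 15 of these probes passed the filter on dim signals. The samples were neocortical tissue of ICR mice at embryonic day 16, taken by manual dissection from one of 2 layers: the ventricular and subventricular zones (V/SVZ) with their dividing progenitors, or the cortical plate (CP) with its postmitotic neurons. Each tissue had 4 samples, and each sample was hybridised to its own 1-colour array. No treatment or genetic change is named in the labels, and the pooling, sex and litter of the embryos are not given in the sources used here. The comparison asks which transcripts differ in amount between the germinal zones and the plate.

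In canonical Wnt signalling, a complex built on Axin and Apc holds beta-catenin so that the kinases CK1 and GSK3 can phosphorylate it and mark it for degradation. Wnt binding to a Frizzled receptor and to Lrp5 or Lrp6 draws Axin to the membrane, beta-catenin accumulates, and it enters the nucleus to act on target genes through Tcf and Lef factors. In the developing cortex the pathway is known for its role in keeping progenitors dividing and in patterning the medial wall, and beta-catenin is also a structural part of the adherens junctions at the ventricular surface.

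The 250 bases before annotated transcript starts were taken from RefSeq (GRCm38.p6) for the genes whose values the comparison turns on: Tcf7l1, whose brightest probe differed most among those of the 10 genes, Axin2 as a target gene of the pathway, Tcf7l2 at both of its listed starts because its probes disagree in size, and the Lef1 start that lies furthest downstream. Promoters were listed for 6 of the 10 genes, with 12 starts in all. Capitals mark a match to a Tcf/Lef binding word, the letters CTTTG with A or T at each of the next 2 positions. The word was searched on both strands, and no window of these genes holds more than 1 match, so none overlap.
Tcf7l1, chr6:72789046-72789295, minus strand: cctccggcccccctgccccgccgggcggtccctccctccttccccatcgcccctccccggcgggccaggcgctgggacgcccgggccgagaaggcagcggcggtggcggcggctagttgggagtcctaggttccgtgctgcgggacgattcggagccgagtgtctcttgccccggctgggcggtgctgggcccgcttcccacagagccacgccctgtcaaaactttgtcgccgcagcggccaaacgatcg
Axin2, chr11:108920099-108920348, plus strand: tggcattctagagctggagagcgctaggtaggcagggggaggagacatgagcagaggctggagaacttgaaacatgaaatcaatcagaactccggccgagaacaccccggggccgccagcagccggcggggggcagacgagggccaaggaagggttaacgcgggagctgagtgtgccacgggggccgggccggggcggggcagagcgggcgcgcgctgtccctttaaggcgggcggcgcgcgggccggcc
Tcf7l2 upstream start, chr19:55741560-55741809, plus strand: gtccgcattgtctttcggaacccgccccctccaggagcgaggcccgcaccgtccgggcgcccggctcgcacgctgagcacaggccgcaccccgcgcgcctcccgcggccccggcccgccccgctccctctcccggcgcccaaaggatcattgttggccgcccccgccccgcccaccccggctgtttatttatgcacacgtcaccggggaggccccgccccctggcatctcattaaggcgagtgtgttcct
Tcf7l2 downstream start, chr19:55895071-55895320, plus strand: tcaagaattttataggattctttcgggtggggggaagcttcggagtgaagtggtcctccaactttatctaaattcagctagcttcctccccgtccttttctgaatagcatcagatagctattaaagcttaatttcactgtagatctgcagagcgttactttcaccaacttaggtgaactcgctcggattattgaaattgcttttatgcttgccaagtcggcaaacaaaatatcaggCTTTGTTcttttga
Lef1 downstream start, chr3:131156044-131156293, plus strand: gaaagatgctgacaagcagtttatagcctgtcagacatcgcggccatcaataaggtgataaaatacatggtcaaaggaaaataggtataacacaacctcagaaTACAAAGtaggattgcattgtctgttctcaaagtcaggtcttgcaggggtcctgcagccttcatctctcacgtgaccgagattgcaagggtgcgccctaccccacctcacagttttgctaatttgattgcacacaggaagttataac

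A word was found at 2 of the 12 starts, 1 each in Tcf7l2 and Lef1, and 14.8% of all 32851 listed promoter windows of this length hold at least 1. The Tcf7l2 match begins 14 bases before the downstream start, and the Lef1 match begins 147 bases before its downstream start. The other 10 windows hold none of these words, which says nothing about binding elsewhere. G and C made up 73.6% of the Tcf7l1 window, 69.2% of the Axin2 window and 72.8% of the upstream Tcf7l2 window. At the downstream starts the share was 40.8% for Tcf7l2 and 44.8% for Lef1.

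The share of gene probes well above background ran from 58.5% to 62.9% over the arrays, and the upper quartile of their processed signal from 2113 to 2566 intensity units. Arrays of 1 tissue correlated at 0.992 to 0.997 and arrays of different tissues at 0.879 to 0.895, across probes, which are not independent replicates. The V/SVZ arrays were all on slide 1 and the CP arrays all on slide 2, so slide and tissue cannot be told apart. Bright spike-in probes differed between the tissues by up to 0.16 on the log2 scale after scaling. The sources do not say whether the 4 samples of a tissue came from different animals, and the p-values then cover only the spread among these 8 samples. Directions follow the labels of the scanner files, which are opposite to the column names of the authors' deposited table. Marker genes went with the scanner labels: all 10 CP neuron markers were higher in CP, such as Camk2b, a neuronal kinase subunit (log2 difference -7.35), Tbr1 (-1.53) and Bcl11b (-2.79), while 9 of 10 radial glia and all 6 intermediate progenitor markers were higher in V/SVZ, with Pax6 at least 105-fold and Eomes 336-fold. The radial glia markers summed to 458263 to 489967 intensity units per V/SVZ array and 34801 to 37367 per CP array. In bulk tissue such as this, fewer cells of a type and less RNA per cell cannot be told apart.

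Each gene passed the test: 9 of the 10 were higher in V/SVZ, and Apc was higher in CP, each judged by its brightest tested probe. Over all 19232 genes tested in the same way, 79.5% were called, with 35.0% on the V/SVZ side and 44.6% on the CP side. The median difference of the 10 genes was 0.43 on the log2 scale, beside -0.09 over all genes. On these probes Tcf7l1, Ctnnb1 and Apc differed by 2-fold or more and the other 7 by less, although a dimmer Tcf7l2 probe exceeded 2-fold. By probe, 12 of 15 were higher in V/SVZ, 2 higher in CP and 1 was not called, beside 79.7% called over all 23860 probes (35.2% and 44.4%). The 12 include the Tcf7l1 probe and the dimmer Tcf7l2 probes, which the filter kept through their V/SVZ signal alone. With only probes well above background on all 8 arrays, 8 genes and 9 probes were higher in V/SVZ. A call is an adjusted p under 0.05 in limma with Benjamini-Hochberg adjustment over all tested probes, and differences are V/SVZ minus CP in log2 units with their standard error (SE) from 4 arrays per tissue. The signals given below are scaled processed intensities, which compare arrays for 1 probe and do not rank genes.

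**Figure D1:**
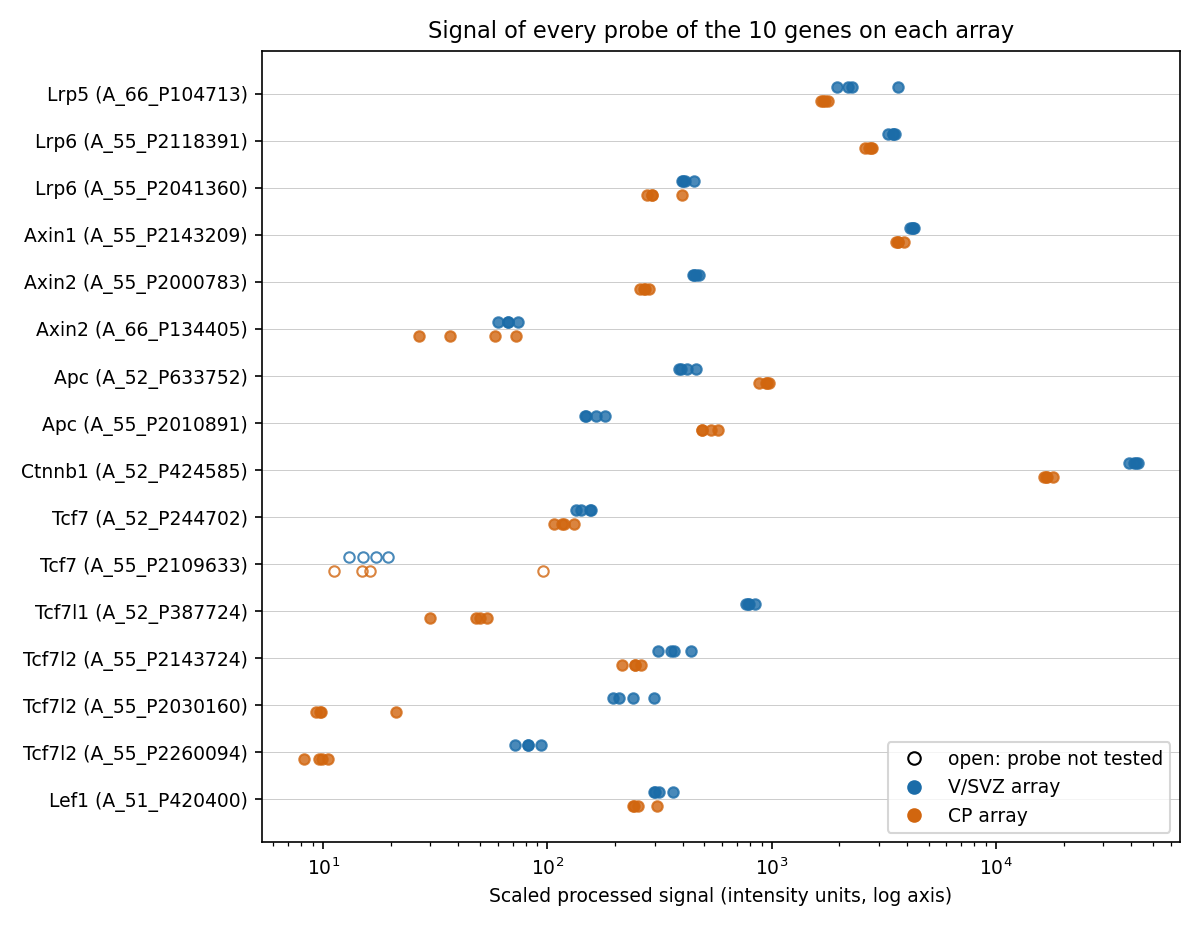
Scaled processed signal (log axis, intensity units) of every probe of the 10 genes on the 4 V/SVZ arrays (blue) and the 4 CP arrays (orange), with the untested Tcf7 probe in open symbols. For Apc the CP arrays lie above the V/SVZ arrays on both probes, and for Tcf7l1 the V/SVZ arrays lie between 771 and 843 while the CP arrays lie between 30.1 and 54.0.

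The Wnt co-receptors were modestly higher in V/SVZ. Lrp6, a single-pass co-receptor whose phosphorylated tail binds Axin, had signals of 3469, 3535, 3459 and 3292 on the V/SVZ arrays and 2763, 2611, 2701 and 2808 on the CP arrays. Every V/SVZ array was above every CP array, and the difference was 0.34 ± 0.04 SE (1.26-fold, n = 4 per tissue, limma adjusted p = 7.17e-05). The second Lrp6 probe gave 450.2, 398, 403 and 412 in V/SVZ and 279, 293, 291 and 396 in CP. It too did not overlap between tissues, but CP array 4 came close to the lowest V/SVZ array, and the difference was 0.41 ± 0.11 SE (limma adjusted p = 0.00957). The unequal change of the Lrp6 probes was 0.08 and not called (exact permutation p = 0.543).

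Lrp5, the other co-receptor, had signals of 3655, 2181, 1949.8 and 2278 on the V/SVZ arrays and 1653, 1685, 1781 and 1722 on the CP arrays. The tissues did not overlap, yet V/SVZ array 1 stood well above the other V/SVZ arrays, while the CP arrays were tight. The difference was 0.51 ± 0.18 SE (1.43-fold, limma adjusted p = 0.0295). Without V/SVZ array 1 it was 0.32 (limma adjusted p = 0.0027), and the call was lost when any 1 CP array was left out, at differences of 0.50 to 0.53 and limma adjusted p of 0.0508 to 0.0641. Within arrays, the Lrp5 to Lrp6 ratio changed by 0.17 log2 units between tissues, which was not called (two-sided exact permutation p = 0.571, 0.653 after adjustment over the 8 pairs compared) and was -0.015 without V/SVZ array 1.

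The Axin scaffolds were both higher in V/SVZ, by different amounts. Axin1, the constitutive scaffold of the destruction complex, had signals of 4321, 4208, 4113 and 4241 in V/SVZ and 3869.7, 3667, 3651 and 3569 in CP. The tissues did not overlap, and the difference of 0.19 ± 0.04 SE (1.14-fold, limma adjusted p = 0.00148) was close in size to the 0.16 seen among spike-ins. It was 0.13 and not called with scaling on the spike-ins (limma adjusted p = 0.0856), and 0.35 after normexp, an alternative background correction.

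Axin2, a second scaffold that is itself a widely used target gene of the pathway, had signals of 473, 444, 459 and 448 in V/SVZ and 282, 272, 258 and 271 in CP. No array of 1 tissue came near those of the other, and the difference was 0.75 ± 0.04 SE (1.69-fold, limma adjusted p = 5.91e-07), or 0.38 after normexp. The dimmer Axin2 probe gave 66.9, 66.5, 59.9 and 73.8 in V/SVZ against 72.6, 58.4, 36.8 and 26.7 in CP, where only 2 of the 4 arrays were well above background. Its tissues overlapped and it was not called (0.56 ± 0.29 SE, limma adjusted p = 0.113), with a value of 0.31 when dim values were raised to the detection floor (the dimmest signal that counts as well above background on that array), -0.14 after normexp and a call of 0.79 without CP array 1 (limma adjusted p = 0.0232). The Axin1 to Axin2 ratio was lower in V/SVZ than in CP by 0.56 log2 units (exact permutation p = 0.0286, the smallest that 4 against 4 arrays allow, and 0.0457 over the 8 pairs). After normexp that ratio changed by -0.029 (exact permutation p = 0.171).

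Apc went the other way. Apc, the large scaffold that binds beta-catenin and also microtubule ends, had signals of 393, 418, 459 and 387 on the V/SVZ arrays and 969, 953, 875 and 943 on the CP arrays. The CP arrays were all above the V/SVZ arrays, and the difference of -1.18 ± 0.06 SE amounted to 2.26-fold (limma adjusted p = 6.11e-07). The second probe gave 147, 148, 181 and 164 in V/SVZ and 488, 491, 574 and 533 in CP, a difference of -1.70 ± 0.08 SE or 3.26-fold (limma adjusted p = 3.45e-07). Both probes were called in the same direction, and the second changed more than the first by 0.53 log2 units (exact permutation p = 0.0286, 0.0476 over 5 probe pairs). The genes whose signal ran most like that of Apc over the 8 arrays were Stxbp5, a SNARE-binding protein, Zdhhc17, a palmitoyltransferase, and Nanos2, an RNA-binding protein (Pearson r of 0.999 each). Values this high were common, and 848 of 13793 named genes exceeded 0.99 with Apc.

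Beta-catenin, the effector of the pathway and a link between cadherins and the cytoskeleton, was higher in V/SVZ. Its single probe had signals of 42042, 42861, 39041 and 41078 in V/SVZ and 17828, 16368, 16615 and 16922 in CP. The tissues were far apart relative to their spread, and the difference was 1.28 ± 0.04 SE (2.44-fold, limma adjusted p = 4.08e-08). It ran from 1.22 to 1.52 over the other settings and from 1.27 to 1.31 with 1 array left out.

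**Figure D2:**
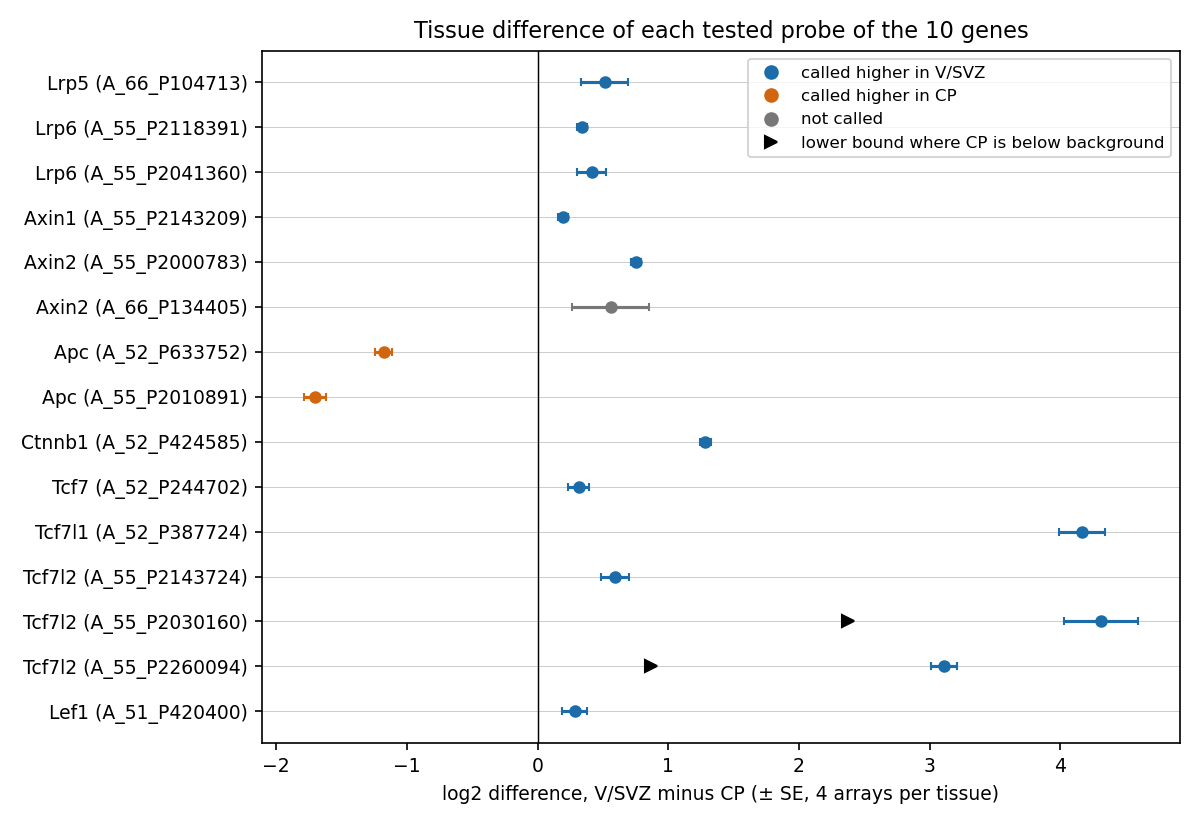
Difference between V/SVZ and CP on the log2 scale (± SE, 4 arrays per tissue) for each of the 15 tested probes, coloured by call. Triangles give the lower bound for 2 Tcf7l2 probes that were not well above background on any CP array, at 5.18-fold and 1.82-fold, and both Apc probes are the values below 0.

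Judged by brightest probes, Tcf7l1 differed most among the transcription factors. Tcf7l1, known mainly as a repressor of Wnt targets in the absence of beta-catenin, had signals of 771, 792, 784 and 843 on the V/SVZ arrays. On the CP arrays it had 30.1, 48.1, 49.9 and 54.0, and only 1 of these 4 arrays was well above background. The difference was 4.17 ± 0.17 SE (17.9-fold, limma adjusted p = 1.25e-07). With the 3 dim CP values raised to the detection floor of each array, the difference was 4.01 (16.1-fold), and it was 2.63 after normexp. The filter kept the probe through its V/SVZ signal alone, so its size in CP is poorly fixed. The genes most like it over the 8 arrays were the helicase gene Ddx11, the vesicular glutamate transporter gene Slc17a6 and Fam114a2 (Pearson r of 0.999 each), with 1134 of 13793 named genes above 0.99.

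Tcf7l2 gave different answers by probe, all in the direction of V/SVZ. Its brightest probe, designed on transcript NM_001142923, had 434, 365, 356 and 309.7 in V/SVZ and 245, 245, 216 and 260.1 in CP, without overlap, for a difference of 0.59 ± 0.11 SE (1.51-fold, limma adjusted p = 0.000981). The probe on transcript NM_001142920 had 240.3, 298, 196 and 208 in V/SVZ and 9.81, 9.30, 9.68 and 21.2 in CP. It was not well above background on any CP array, so it was at least 5.18-fold higher in V/SVZ (fitted difference 4.31, limma adjusted p = 2.02e-06). An at-least fold sets the V/SVZ mean against, per CP array, the higher of the probe's own signal and the lowest signal of any probe well above background.

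The third Tcf7l2 probe, on transcript NM_001142918, had 93.3, 72.0, 82.0 and 81.6 in V/SVZ and 9.84, 9.56, 8.20 and 10.5 in CP, none of the latter well above background. Its V/SVZ level was at least 1.82-fold that in CP (fitted difference 3.11, limma adjusted p = 2.56e-08). The filter kept this probe and the preceding one through V/SVZ signal alone, so their fitted differences and p-values rest on dim CP readings. With dim CP values raised to the detection floor, the NM_001142920 probe still changed more than the brightest one by 1.78 log2 units (exact permutation p = 0.0286, 0.0476 over 5 probe pairs), and by 0.97 after normexp. The third probe, its CP values also raised to the floor, changed more than the brightest by 0.27 (exact permutation p = 0.0286). After normexp this was -0.013. With 1 array left out in turn the call held in 4 of 8 cases (exact permutation p up to 0.0571). Averaging the 3 probes gave a difference of 2.67 for the gene. Where the probes lie relative to the upstream and downstream starts printed above was not analysed here.

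Tcf7 and Lef1, known mainly as activators when bound to beta-catenin, differed little between the tissues. Lef1 had signals of 361, 299, 313 and 302 in V/SVZ and 254, 244, 241 and 308 in CP. CP array 4 lay above 2 of the V/SVZ arrays, and among brightest probes Lef1 was the only one of the 10 whose tissues overlapped (9 of 10 did not, against 75.2% of all genes tested, and 13 of 15 probes did not, against 75.5% of all probes tested). The difference was 0.29 ± 0.10 SE (1.22-fold, limma adjusted p = 0.0245). It was 0.18 and not called after normexp (limma adjusted p = 0.106), was not called with scaling on the spike-ins or with array weights, and lost its call when any of 4 single arrays was left out. Without V/SVZ array 1 it was 0.22 (limma adjusted p = 0.0581), and without CP array 1, 2 or 3 it was 0.27, 0.25 and 0.25 (limma adjusted p = 0.0573 to 0.0646).

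The brighter Tcf7 probe had 142, 156, 135 and 155 in V/SVZ and 106, 132, 116 and 119 in CP. The lowest V/SVZ array was just above the highest CP array, and the difference was 0.31 ± 0.08 SE (1.24-fold, limma adjusted p = 0.00605). After normexp the sign turned and the call was lost (-0.068, limma adjusted p = 0.285). The second Tcf7 probe was not tested, since it was well above background only on CP array 1, where it read 95.2, while the other 7 arrays read 11.2 to 19.5.

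Ratios within arrays compared Tcf7l1 with its relatives, each by its brightest probe. The ratio of Tcf7l1 to Tcf7l2 was higher in V/SVZ than in CP by 3.57 log2 units, that of Tcf7l1 to Lef1 by 3.88, and the ratio of Tcf7 to Tcf7l1 was lower by 3.85. Each had an exact permutation p = 0.0286 (0.0457 over the 8 pairs), with the 4 arrays of each tissue fully separated. These ratios share the Tcf7l1 probe, which the filter kept through V/SVZ alone. They restate its large difference and are not separate support for it. With dim values raised to the floor these changes were 3.42, 3.72 and -3.70, and after normexp 2.12, 2.45 and -2.70. With the probes of a gene averaged, the change between Tcf7l1 and Tcf7l2 was 1.49. By brightest probes Tcf7l2 changed more than Lef1 by 0.31 (exact permutation p = 0.0286, 0.0457 adjusted), and with averaged probes by 2.39. The brightest-probe call held in 4 of 8 cases with 1 array left out in turn. The ratio tests above split the 8 arrays freely. Within replicate numbers, taken here as a possible pairing of the samples, the smallest exact permutation p is 0.125, so no ratio could pass there. Unequal change was not called between Tcf7 and Lef1 (0.03, exact permutation p = 0.83) or between Tcf7 and Tcf7l2 (-0.28, exact permutation p = 0.114), although the latter reached -0.57 and passed after normexp (exact permutation p = 0.0286).

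**Figure D3:**
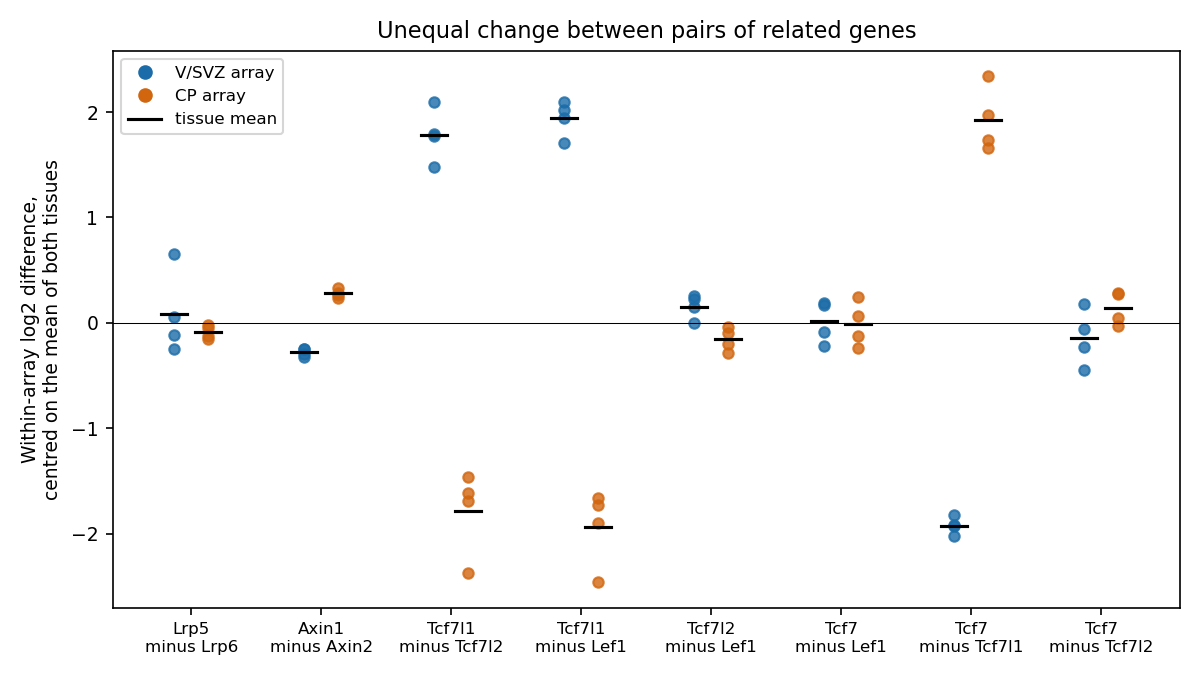
Within-array log2 difference between the brightest probes of 8 pairs of related genes, centred on the mean of both tissues, for each V/SVZ array (blue) and CP array (orange), with bars at the tissue means. The 3 pairs with Tcf7l1 separate by 3.57 to 3.88 log2 units, while Lrp5 with Lrp6 and Tcf7 with Lef1 overlap.

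Most other genes of the destruction complex and its regulators were higher in CP, as Apc was. Of 16 such genes, 13 were higher there and 1 was higher in V/SVZ, and the list had a median of -0.45. Over all genes, 44.6% were higher in CP and 35.0% in V/SVZ, at a median of -0.09. The CP count of the list ran from 10 to 13 over the other settings. Its largest differences were in Btrc, the F-box protein that recognises phosphorylated beta-catenin (-1.25 ± 0.07 SE, limma adjusted p = 6.24e-07), the neural paralog Apc2 (-1.12 ± 0.04 SE, limma adjusted p = 3.38e-08) and the Apc-binding protein Amer1 (-1.03 ± 0.03 SE, limma adjusted p = 1.92e-08). The exception was Tnks2, a tankyrase that marks Axin for turnover (2.01-fold higher in V/SVZ, limma adjusted p = 5.76e-07). Among the kinase genes, Gsk3a (-0.40 ± 0.04 SE) and Gsk3b (-0.12 ± 0.04 SE, limma adjusted p = 0.0361) were higher in CP, and Csnk1a1 was not called (-0.02, limma adjusted p = 0.654). The Gsk3b difference was smaller in size than the 0.16 seen among spike-ins.

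At the membrane the picture was mixed. Of 19 tested genes of the receptor complex and the Dishevelled family (21 listed), 9 were higher in V/SVZ while 7 were higher in CP, at a median of 0.04. Over all genes, 35.0% were higher in V/SVZ and 44.6% in CP. Gprc5b, an orphan G protein-coupled receptor, had a difference of 2.94 ± 0.07 SE and Kremen1, a Dickkopf receptor, 1.75 ± 0.10 SE, while Tmem198, a membrane protein linked to Lrp6 phosphorylation, had -1.35 ± 0.10 SE. Lrp4, a relative of Lrp5 and Lrp6 named here after its values were seen, was well above background on only 2 of the 4 CP arrays, and with the dim values raised to the floor its difference was 5.54. The Dishevelled genes, which relay the signal from Frizzled, divided 3 ways, with Dvl2 higher in V/SVZ (1.20 ± 0.07 SE), Dvl1 higher in CP (-0.50 ± 0.06 SE) and Dvl3 not called (-0.09, limma adjusted p = 0.382). Of 6 listed genes for receptor turnover and R-spondin receptors, 3 were tested and all were called higher in V/SVZ. The count was 2 with dim values raised to the floor, 2 after normexp and 2 with spike-in scaling. The ubiquitin ligase gene Znrf3 was at 0.69 ± 0.13 SE, with geometric mean signals of 139 in V/SVZ and 86.1 in CP. Tmem131l was at 0.19 ± 0.04 SE, close in size to the 0.16 seen among spike-ins. The remaining gene, Rnf43, was dim throughout CP and entered the test by its V/SVZ signal. Its lower bound was 1.14-fold.

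Partners of beta-catenin at junctions and in the nucleus also went both ways. Of 8 tested junction genes (10 listed), 3 were higher in V/SVZ, with alpha-catenin Ctnna1 at 2.54 ± 0.05 SE and the cadherin Cdh4 at 2.12 ± 0.20 SE, and 4 were higher in CP, with the cadherin Cdh11 at -2.25 ± 0.11 SE. Of 24 nuclear partners, 6 were higher in V/SVZ while 11 were higher in CP (median -0.15), and the Groucho corepressors, which bind Tcf factors, were divided: Tle4 (-2.60 ± 0.10 SE) and Tle2 (-1.77 ± 0.05 SE) were higher in CP and Tle1 (1.29 ± 0.09 SE) higher in V/SVZ. Of 15 tested feedback and common target genes (20 listed), 6 went each way (median -0.07). Sp8, a zinc finger factor, was at 3.96 ± 0.11 SE, the polarity gene Prickle1 at -3.55 ± 0.06 SE and Myc at -2.47 ± 0.05 SE. The 6 on the V/SVZ side include Znrf3 and Rnf43, which the receptor turnover list also counts. With dim values raised to the floor, the V/SVZ side held 5. Over all genes the shares were 35.0% and 44.6%, as above.

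**Figure D4:**
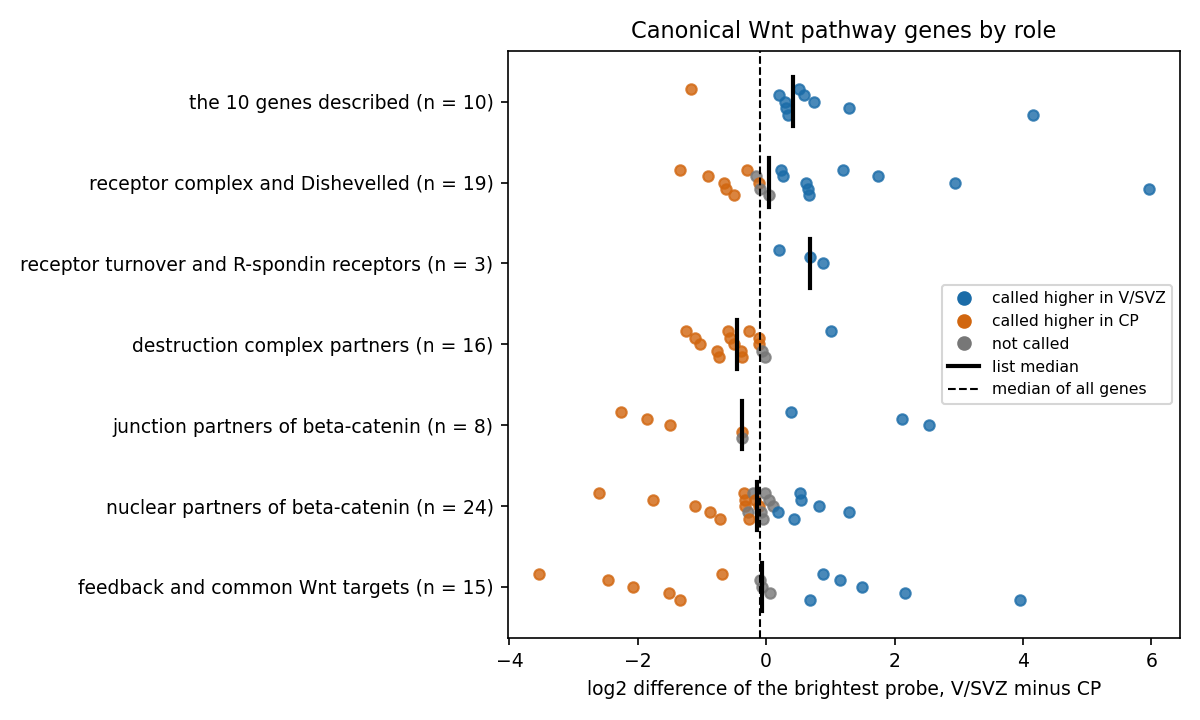
Difference of the brightest probe between V/SVZ and CP (log2) for each tested gene, by role in the pathway and coloured by call, with list medians (bars) and the median of all genes (dashed, -0.09). The 10 genes have a median of 0.43 and the 16 destruction complex partners one of -0.45.

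Markers of other cell types are given beside the shares over all genes, of which 79.5% were called, 35.0% as higher in V/SVZ and 44.6% in CP. Of 10 microglia markers, 8 were higher in V/SVZ, led by P2ry12 (2.39 ± 0.12 SE), and their summed signal was 28392 to 40679 in V/SVZ and 9995 to 12647 in CP. Of 13 endothelial and pericyte markers, 5 were higher in V/SVZ, 1 in CP and 7 not called. The largest difference was in the glucose transporter gene Slc2a1 (0.98 ± 0.06 SE). The sums were 31561 to 33878 in V/SVZ and 22740.3 to 25364 in CP, but a sum weights the brightest probes most. Slc2a1 alone had geometric mean signals of 11138 in V/SVZ and 5641 in CP. The part of these cells in the differences of the 10 genes was not tested. Oligodendrocyte markers divided 2 and 2 of 7 tested (Mbp -1.58), those of the ganglionic eminence and interneurons 5 in V/SVZ and 3 in CP of 8 (Gsx2, not well above background in CP, with a V/SVZ level at least 1.68-fold that in CP), and those of the hem and hippocampal field 3 and 4 of 8 (Lhx5, not well above background in V/SVZ, at least 44.8-fold higher in CP). Meninges markers divided 2 and 2 of 7 (Lum, not well above background in V/SVZ, at least 4.24-fold higher in CP) and choroid plexus markers 1 and 1 of 2 (Aqp1 1.12), and of 3 thalamus markers 1 was higher in CP (Prkcd -1.06). Ttr (choroid plexus), Nkx2-1 (ventral forebrain), Gbx2 (thalamus) and Wnt3a (hem) were too dim to be tested. The part of these cell types in the results was not tested either.

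**Figure D5:**
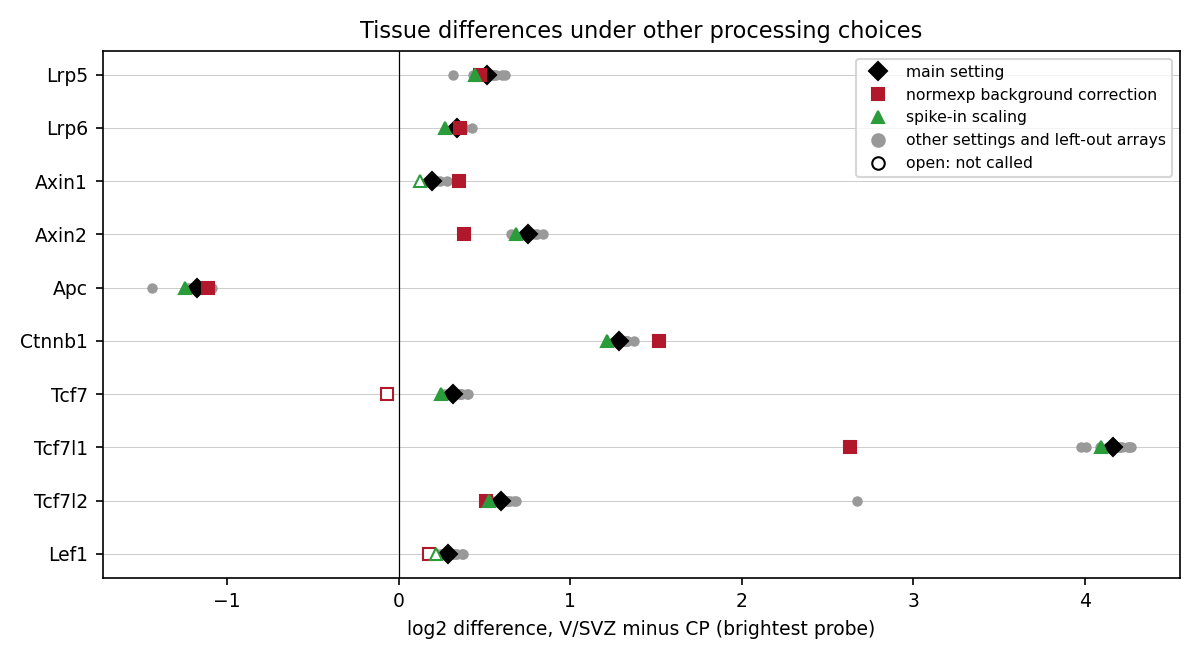
Difference between V/SVZ and CP (log2, brightest probe) of each of the 10 genes in the main setting (black), after normexp (red), with spike-in scaling (green) and in all other settings and with each array left out (grey), open where not called. Apc stays below 0 and Ctnnb1 and Tcf7l1 above it, while Tcf7 crosses 0 after normexp at -0.068.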

How the data were processed

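Total RNA (100 ng) of each sample was amplified and labelled with Cy3, per the labels' protocols, and scanned images were converted by Agilent Feature Extraction 10.7.1.1, per the file headers. The deposited intensity values are a processed signal, corrected for background and spatial trend by that software, and median spot and background signals. A further table from the authors holds row-centred log2 values (17163 gene probes). Each column correlated at 0.999 with 1 array, of the other tissue and the same number, and at -0.945 to -0.954 with the array it is named for, so it served as an alternative only, with its direction turned. Its filter and scaling are unknown, and its column medians ran from -0.03 to 0.02.

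Control spots and spots marked as outliers (142 to 258 per array) were left out, no gene spot was saturated, and spots of a probe were averaged as log2 values. Each array was scaled on its 75th percentile. A probe was tested if well above background on all 4 arrays of a tissue with at least 3 values in each. Differences were fitted with limma 3.58.1 (R 4.3.3). Unversioned accessions gave 26755 probes a symbol through RefSeq (GRCm38.p6), and 12674 none. The array headers name another build, so gene coordinates other than those of the promoter table are not given. The tested probe with the brightest mean stood for a gene. Ratios within arrays were tested by two-sided exact permutation. The limma fit alone was tested on simulated data, with far fewer changed probes than were called here. That simulation did not cover the filter on dim signals, the detection floor or the ratio tests.

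The members and lists were chosen with earlier results of these data known. From each pathway list, up to 3 called genes were named by size of difference among those well above background on all 8 arrays, with the called gene furthest against the majority. The kinase and Dishevelled genes were named in any case, and the gene with the largest difference from each marker list. Genes alike to a member were ranked by Pearson correlation over the 8 arrays. The comparison of probes of 1 gene, the spike-in scaling, the floor for dim values and the ratio tests within replicate numbers were added after seeing the data. Same-numbered arrays of the 2 tissues deviated together, with correlations of 0.12 to 0.34 over probes, although V/SVZ array 3 correlated better with CP array 2 (0.17). They also held the same position on their slides, so a shared position and a pairing of samples cannot be told apart. The sample titles give only the numbers, which were taken as a possible pairing. The number of arrays limits the precision.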

Additional observations from a re-analysis of the deposited data

Results flagged for a closer look

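CP array 4 stood apart from the other CP arrays on 2 of the 16 probes. On the Tcf7l2 probe for NM_001142920 it read 21.2 intensity units, where the other CP arrays read 9.30 to 9.81, and all 4 values were below the level called well above background. On the dimmer Lrp6 probe it read 396, where the others read 279 to 293. On the log2 scale, most of the range of the 4 arrays was in each case the gap between array 4 and the next. That gap was 0.935 of the range for Tcf7l2 and 0.859 for Lrp6. Of 32 groups of 4 arrays examined, chance alone marks about 1 in 20 this way. Without CP array 4 the Lrp6 probe had a difference of 0.53, and the Tcf7l2 probe has only a bound in CP.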

How the results depend on the processing

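Over 309 recalculated member probe differences, 294 kept direction and side of the threshold, 12 lost a call, 1 gained one and 2 turned. The count of the 10 genes higher in V/SVZ ran from 6, in the authors' table, which holds fewer of their probes, to 9. It was 7 after normexp (run on median signals) and 7 with spike-in scaling, and 7 to 9 with 1 array left out, while Apc alone was higher in CP throughout. With the replicate number as a block, 9 genes and 12 probes were higher in V/SVZ and 1 gene and 2 probes higher in CP, and the block changed no member call. The ratios called in the report, -0.56 for Axin1 and Axin2, 3.57 for Tcf7l1 and Tcf7l2, 3.88 for Tcf7l1 and Lef1, 0.31 for Tcf7l2 and Lef1 and -3.85 for Tcf7 and Tcf7l1, keep their values under the block but reach an exact permutation p of 0.125, the smallest 4 pairs allow.

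After normexp the difference was -0.068 for Tcf7 and -0.14 for the dimmer Axin2 probe. The unequal change was then -0.029 for Axin1 and Axin2, -0.25 for Tcf7 and Lef1 and -0.57 for Tcf7 and Tcf7l2. Between probes it was -0.013 for the third Tcf7l2 probe, -0.092 for Lrp6 and -0.52 for Axin2, and 2 destruction complex partners were higher in V/SVZ. With probes of a gene averaged, the change between Tcf7 and Tcf7l2 was -2.36, that between Tcf7l1 and Tcf7l2 was 1.49, that between Tcf7l2 and Lef1 was 2.39, and 2 destruction complex partners were higher in V/SVZ. The authors' table, with its direction turned, gave 7 member probes higher in V/SVZ and 1 in CP, 1 receptor turnover gene and 3 target genes higher in V/SVZ. With 1 probe a gene, 1 member probe was higher in CP, and without a filter 2 receptor turnover genes were. The cause of these changes was not tested, beyond the fewer probes in the last table and in the choice of 1 probe a gene.

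With each array left out in turn, unequal change ran from -0.015 to 0.29 for Lrp5 and Lrp6 and from 0.27 to 0.36 for Tcf7l2 and Lef1. It ran from -0.048 to 0.11 for Tcf7 and Lef1, and from -0.45 to 0.012 for the Axin2 probes. For Tcf7l2 and Lef1 the call held in 4 of 8 cases, with an exact permutation p of 0.0286 to 0.0571. Receptor turnover genes higher in CP numbered 0 to 1. Over the other settings 60.5% (no filter) to 83.4% of probes were called. Signals near background, as for Tcf7l1 in CP, Tcf7, the dimmer Axin2 probe and the dimmer Tcf7l2 probes, limit the size of a fold change, and 4 arrays per tissue on 1 slide each limit the rest.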
